A study of Mus musculus and Homo sapiens with 20 samples.

Results

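The E2F transcription factors and the retinoblastoma (RB) proteins form the switch that admits a cell into S phase, and 10 of their genes were followed through HSP90 inhibition in 3 cell lines. They were 6 E2F genes (E2F1, E2F2, E2F3, E2F4, E2F7 and E2F8), the dimerization partner gene TFDP1, and the pocket protein genes RB1, RBL1 and RBL2. The genes were chosen by symbol, ignoring case, and all 10 were found among the 63568 genes of the K562 table and among the 43626 genes of each mouse table. In K562 a second row under the symbol RBL1 held at most 6 counts in any library, so the row with the higher total stood for RBL1.

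Gene counts from RNA sequencing were compared between cells given the HSP90 inhibitor NVP-AUY922 (HSP90i) for 16 h and their DMSO-treated controls (Control), with 3 libraries in each group of each line. The inhibitor was given at 300 nM to K562, a human line from chronic myeloid leukaemia, at 200 nM to MEF, mouse embryonic fibroblasts, and at 50 nM to HPC-7, a mouse blood precursor line. Line, dose and, for K562, species therefore changed together and cannot be told apart. The labels used here give no genotype, strain or passage, and do not say that the replicates were grown as separate cultures. All p-values thus refer to the spread among these libraries, which may be technical.

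E2F1, E2F2 and E2F3 are the activating members of the family: bound to DNA as dimers with a DP protein such as TFDP1, they switch on genes for nucleotide synthesis and DNA replication. RB1 and its relatives RBL1 and RBL2 bind E2F proteins and turn their target promoters off until cyclin-dependent kinases (CDKs) phosphorylate the pocket proteins. E2F4 works mostly with RBL2 and RBL1 as a repressor in resting cells, where RBL2 is typically abundant, while RBL1 is typical of cycling cells. E2F7 and E2F8, the atypical members, bind DNA without a DP partner and repress E2F targets late in S phase. Several of these genes, E2F1, E2F7, E2F8 and RBL1 among them, are themselves E2F targets.

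Stretches of 4 mouse promoters are shown because each holds a close match to the site that E2F proteins bind, which bears on members that are themselves E2F targets. They were read 5′ to 3′ on the strand of the gene from RefSeq promoter windows on GRCm38.p6, each of which runs from 250 bases before to 50 bases after a start listed for the gene, and capitals mark the match. The windows of these 4 lie at the outer start of the gene.

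E2f2, chr4:136172263-136172323, plus strand: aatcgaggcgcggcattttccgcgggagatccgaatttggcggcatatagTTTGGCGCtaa
E2f3, chr13:29986017-29986124, minus strand: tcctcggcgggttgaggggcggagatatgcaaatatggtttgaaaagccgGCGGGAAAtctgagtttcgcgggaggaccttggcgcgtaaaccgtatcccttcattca
E2f7, chr10:110745191-110745298, plus strand: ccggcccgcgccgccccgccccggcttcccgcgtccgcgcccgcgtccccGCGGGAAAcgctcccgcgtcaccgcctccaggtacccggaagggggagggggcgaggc
Rbl1, chr2:157204495-157204602, minus strand: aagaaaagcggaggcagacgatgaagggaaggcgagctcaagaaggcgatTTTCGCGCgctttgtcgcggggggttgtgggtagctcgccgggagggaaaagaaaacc

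The motifs searched were TTTCCCGC, TTTCGCGC, TTTGCCGC and TTTGGCGC on both strands, and no motif is the reverse complement of another. Windows were at hand for 8 of the 10 members, and 5 of these 8 genes held a match (62.5%), against 2.6% of 27025 genes with a window. Counted by window, 6 of 11 member windows held one (54.5%), against 2.26% of 32851 windows. The matches began 40 bases after the start of E2f2, 11 bases before that of E2f3, 198 bases before that of E2f7 and 18 bases before that of Rbl1. The fifth gene was Tfdp1, whose windows overlap and hold the same site, so the count by window includes that site in both. The window of Rbl2, at its outer start, held no match to these letters. Those of E2f1 and E2f8 held none either, but their listed starts lie 466 and 477 bases inside the gene, so the sequence at the outer start of E2f1 and E2f8 was not searched. E2f4 and Rb1 had no window. With TTTCGCGC and TTTGGCGC alone, 3 of 8 members held a match (37.5%), against 0.929% of all genes.

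Levels are given as CPM, that is, counts set to a common library size using TMM factors and not corrected for gene length, so they are compared between groups and not between genes. Fold changes are on the log2 scale, HSP90i over Control, and carry a standard error (SE). Group values are means ± SD with n = 3 each, and a gene was called when edgeR's quasi-likelihood test gave it an adjusted p under 0.05, using Benjamini-Hochberg adjustment over the genes tested in its line.

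The libraries held 7936066 to 10950573 counts for K562, 10542305 to 22872539 for MEF and 10131491 to 16859394 for HPC-7. K562 Control replicate 1 stood apart: the SD of its log2 difference from the other 2 K562 controls over genes was 0.561 and 0.696, against 0.319 between those 2. HPC-7 HSP90i replicate 2 stood apart in replication genes, whose 31 listed members summed to 2290 CPM there and to 1216 and 1155 CPM in the other 2 HPC-7 HSP90i libraries. Results that turned on either library are therefore also given without it. MEF Control replicate 3 was set apart less, at 0.345 and 0.37 from the other 2 MEF controls, against 0.238 between those 2. Markers of erythroid and blood precursor cells listed for K562 summed to 4.09 CPM in it, against 0.616 and 1.04 CPM in the other 2. The members called in MEF were the same without it. The lines carried their own markers. K562 held HBG1, of the red cell lineage, with COL1A2, PDGFRA and THY1 of fibroblasts at 0. MEF held the collagen genes, with Ptprc of blood cells at 0.148 ± 0.257 CPM in HSP90i and 0.456 ± 0.679 CPM in Control libraries. HPC-7 held Kit and Ptprc, with Thy1 at 0. CD34, a blood precursor marker, was at 0 in K562. Some markers moved with treatment in each line. In K562, GATA2 averaged 36.7 CPM in HSP90i and 132.6 CPM in Control cells (called lower). GATA1 averaged 106.5 ± 7.57 CPM in HSP90i and 198.8 ± 67.7 CPM in Control K562 (called lower), and COL1A1 10.4 and 6.25 CPM (called higher). They were the only ones called there of 8 erythroid, 7 blood precursor and 1 fibroblast markers tested. The 6 fibroblast markers summed to 18530 to 19100 CPM in HSP90i MEF and 12950 to 13260 CPM in Control MEF (4 called higher, 2 lower). Of the 8 blood precursor markers 2 were tested in MEF, where Gata2 averaged 36.2 CPM in HSP90i and 23.5 CPM in Control cells (called higher) and Cd34 156 CPM in HSP90i and 181 CPM in Control cells (called lower). The 8 summed to 182.7 to 201.2 CPM in HSP90i MEF and 189.4 to 237.7 CPM in Control MEF. The 8 blood precursor markers summed to 4343 to 4763 CPM in HSP90i HPC-7 and 2861 to 2891 CPM in Control HPC-7 (4 called higher, 2 lower). Kit, among the 4, averaged 2522 CPM in HSP90i and 986.6 CPM in Control HPC-7. The 2 called lower were Cd34, at 56.7 ± 38.4 CPM in HSP90i and 341.8 ± 11.6 CPM in Control cells, and Lyl1, at 159.8 and 344.3 CPM. The higher sum thus did not hold across the list. The fibroblast list summed to 268.3 to 310.4 CPM in HSP90i HPC-7 and 178.6 to 202.6 CPM in Control HPC-7, nearly all of it Pdgfrb, the 1 of 6 tested there, at 293 CPM in HSP90i and 191.5 CPM in Control cells (called higher). The part of these shifts in the results below was not tested.

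All 10 members passed the filter on low counts in each line. In HPC-7 all 10 were called, with 8 lower and 2 higher in HSP90i. Over all genes tested in HPC-7, 36.6% were called lower and 36.5% higher. In MEF 7 were called lower and 2 higher, against 38.2% and 35.1% of all genes, and E2f2 was not called. In K562 E2F1 and E2F2 were called lower and none was called higher, against 5.97% and 5.11% of all genes. The members' median log2 fold change was −1.62 for HPC-7, −0.70 for MEF and −0.27 for K562, and that of all genes tested lay between −0.02 and 0.00 in these lines. The groups did not overlap for 10 members in HPC-7, 9 in MEF and 3 in K562, while 77.4%, 76.2% and 35.2% of all genes tested were free of overlap in these lines. E2F1 was the only member called in all 3 lines, and Rb1 and Rbl2 were the only members called higher, both of them in both mouse lines. The libraries are bulk samples, so fewer cells of a kind and less RNA per cell cannot be told apart.

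**Figure D1:**
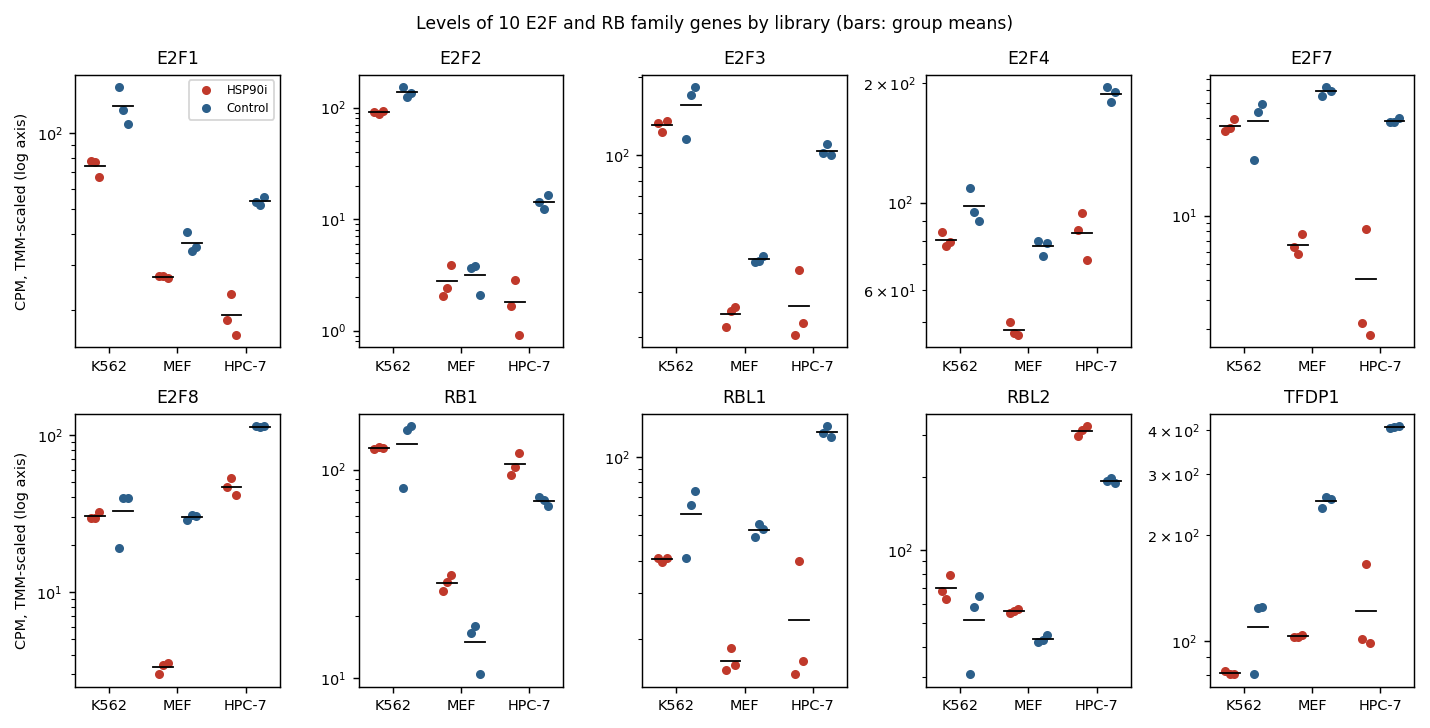
TMM-scaled CPM (log axis) of each of the 10 genes in each library of K562, MEF and HPC-7, HSP90i in red to the left of Control in blue, with bars at the group means. In HPC-7 the 3 red points lie outside the range of the blue ones for all 10 genes, and in K562 Control replicate 1, the first blue point, lies apart from the other 2 controls for RB1, RBL2, E2F7 and E2F8.

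Among the activators, E2F1 was lower under inhibition in each line. In HPC-7, E2f1 (chr2:154559400-154569892, GRCm38.p6) was at 18.2, 23.1 and 15.9 CPM in HSP90i cells, against 53.7, 52.0 and 55.8 CPM in Control cells. The groups were far apart, with a log2 difference of −1.50 ± 0.12 (edgeR's quasi-likelihood test, adjusted p = 3.29e-06). In MEF it was at 27.2, 27.2 and 26.7 CPM in HSP90i cells, against 40.7, 34.1 and 35.4 CPM in Control cells, and fell by 0.45 ± 0.08 on the log2 scale (adjusted p = 0.000825). The 3 treated MEF libraries were close together and all below the controls. In K562, E2F1 was at 77.4, 77.3 and 67.2 CPM in HSP90i cells, against 152.7, 124 and 109 CPM in Control cells, with a change of −0.80 ± 0.16 (adjusted p = 0.0156). Every treated K562 library was below every control here too, but the K562 call was lost on leaving out any single HSP90i library or Control replicate 2.

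E2f2 was called in HPC-7 and not in MEF. In HPC-7, E2f2 (chr4:136172274-136196057) was at 1.67, 2.84 and 0.913 CPM in HSP90i cells, from 10 to 29 counts a library, against 14.2, 12.4 and 16.4 CPM in Control cells. It was 8.01-fold lower (−3.00 ± 0.27, adjusted p = 5.11e-06, edgeR's quasi-likelihood test). In MEF it held 22 to 82 counts a library, at 2.03, 2.42 and 3.92 CPM in HSP90i cells and 3.61, 3.79 and 2.09 CPM in Control cells. These groups overlapped, and the difference of −0.27 ± 0.30 was within the spread (adjusted p = 0.424). In K562, where E2F2 was well detected, it was at 90.5, 87.1 and 93.4 CPM in HSP90i cells, against 153, 124 and 134 CPM in Control cells (−0.60 ± 0.13, adjusted p = 0.0222). The K562 groups did not overlap, but the call was lost on leaving out any single HSP90i library or Control replicate 2.

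E2F3 was called lower in both mouse lines and was not called in K562. In HPC-7, E2f3 (chr13:29906575-29986064) was at 20.4, 36.4 and 22.7 CPM in HSP90i cells, against 102, 110.2 and 100.1 CPM in Control cells (−1.99 ± 0.18, adjusted p = 5.42e-06, edgeR's quasi-likelihood test). Replicate 2 was the highest treated library, yet it remained below every control. In MEF it was at 22.0, 25.4 and 26.3 CPM in HSP90i cells, against 39.0, 39.4 and 41.2 CPM in Control cells (−0.71 ± 0.08, adjusted p = 4.86e-05). In K562 the values were 133, 122.8 and 136 CPM in HSP90i cells and 115, 170.4 and 183 CPM in Control cells (−0.26 ± 0.18, adjusted p = 0.399). The K562 groups overlapped because Control replicate 1 was below all 3 treated libraries.

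E2F4, the E2F that works mostly with RBL1 and RBL2, was lower in both mouse lines. E2f4 (chr8:105297663-105305370) was at 85.3, 94.4 and 71.8 CPM in HSP90i HPC-7, against 196, 179 and 190.4 CPM in Control HPC-7 (−1.17 ± 0.10, adjusted p = 3.92e-06, edgeR's quasi-likelihood test). In MEF it was at 49.9, 46.8 and 46.3 CPM in HSP90i cells, against 80.1, 73.3 and 79.1 CPM in Control cells (−0.70 ± 0.06, adjusted p = 7.8e-06). Neither line showed any overlap. In K562 the 3 treated libraries, at 84.4, 77.8 and 79.6 CPM, were also below the controls, at 109, 94.5 and 89.9 CPM, but the difference of −0.28 ± 0.13 was not called (adjusted p = 0.206).

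Of the 10 genes, the atypical repressors fell most in MEF. E2f7 (chr10:110745439-110787384) was at 6.38, 5.76 and 7.74 CPM in HSP90i MEF, against 55.3, 62.5 and 59.0 CPM in Control MEF, 8.9-fold lower (−3.15 ± 0.10, adjusted p = 3.92e-08, edgeR's quasi-likelihood test). E2f8 (chr7:48866429-48882073) was at 2.996, 3.44 and 3.56 CPM in HSP90i MEF, against 28.7, 30.8 and 30.4 CPM in Control MEF, 9.1-fold lower (−3.19 ± 0.10, adjusted p = 3.1e-08). The replicates of both genes lay close together within each group.

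In HPC-7 E2f7 and E2f8 parted. E2f7 was at 2.18, 8.23 and 1.83 CPM in HSP90i cells, against 37.9, 37.9 and 40.3 CPM in Control cells, 9.89-fold lower (−3.31 ± 0.36, adjusted p = 1.79e-05, edgeR's quasi-likelihood test). HSP90i replicate 2 held 84 E2f7 counts and the other 2 held 30 and 20, and without it the change was −4.26 ± 0.14 (adjusted p = 3e-10). E2f8 stayed at 46.2, 52.9 and 41.3 CPM in HSP90i cells, against 113, 112 and 113 CPM in Control cells, 2.41-fold lower (−1.27 ± 0.09, adjusted p = 1.86e-06). Relative to E2f4 within a library, which needs no scaling between libraries, E2f8 gave 0.542, 0.561 and 0.575 counts per E2f4 count in HSP90i HPC-7, against 0.576, 0.624 and 0.595 in Control HPC-7. The same ratio was 0.0600, 0.0734 and 0.0769 in HSP90i MEF, against 0.358, 0.420 and 0.385 in Control MEF. E2f8 thus fell well past E2f4 in MEF, while in HPC-7 the pair moved nearly together.

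In K562 neither atypical gene was called. E2F7 was at 33.4, 34.6 and 39.4 CPM in HSP90i cells and 21.9, 43.7 and 49.4 CPM in Control cells (−0.10 ± 0.27, adjusted p = 0.853, edgeR's quasi-likelihood test). E2F8 was at 29.4, 29.4 and 32.3 CPM in HSP90i cells and 19.1, 39.6 and 39.6 CPM in Control cells (−0.11 ± 0.26, adjusted p = 0.827). For both genes the treated libraries lay between Control replicate 1 and the other 2 controls.

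TFDP1, whose protein pairs with E2F1 to E2F4 to bind DNA, was lower in both mouse lines. Tfdp1 (chr8:13338725-13378448) was at 102.5, 103 and 104 CPM in HSP90i MEF, against 239.5, 258 and 254 CPM in Control MEF, 2.43-fold lower (−1.28 ± 0.05, adjusted p = 5.97e-08, edgeR's quasi-likelihood test). In HPC-7 it was at 101, 166 and 98.6 CPM in HSP90i cells, against 406, 408 and 410.3 CPM in Control cells, 3.35-fold lower (−1.75 ± 0.17, adjusted p = 1.08e-05). The controls of HPC-7 were nearly equal, and treated replicate 2 was the highest of its group. In K562 it was at 82.0, 80.2 and 80.5 CPM in HSP90i cells and 80.6, 124 and 125 CPM in Control cells (−0.44 ± 0.18, adjusted p = 0.156). Control replicate 1 fell among the treated K562 libraries. The other DP gene, TFDP2, went the opposite way in mouse: Tfdp2 averaged 90.5 ± 6.48 CPM in HSP90i MEF and 45.8 ± 0.741 CPM in Control MEF (0.98 ± 0.06, adjusted p = 1.41e-06). In HPC-7 it averaged 256.5 ± 18.7 CPM in HSP90i cells and 175 ± 5.36 CPM in Control cells (0.55 ± 0.07, adjusted p = 7.55e-05).

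The pocket protein genes divided. Rbl1, the member typical of cycling cells, fell in both mouse lines, while Rb1 and Rbl2 rose in both. Rbl1 (chr2:157145893-157204534) was at 15.1, 18.5 and 15.8 CPM in HSP90i MEF, against 49.4, 55.4 and 52.9 CPM in Control MEF, 3.2-fold lower (−1.68 ± 0.09, adjusted p = 4.14e-07, edgeR's quasi-likelihood test). In HPC-7 it was at 14.6, 40.0 and 16.4 CPM in HSP90i cells, against 124, 131.5 and 119.5 CPM in Control cells, 5.36-fold lower (−2.42 ± 0.30, adjusted p = 4.33e-05). Treated replicate 2 was again the highest of its group, and without it the change was −3.02 ± 0.09 (adjusted p = 1.61e-10). In K562 it was at 40.8, 39.4 and 41.0 CPM in HSP90i cells and 41.0, 65.7 and 74.0 CPM in Control cells (−0.57 ± 0.21, adjusted p = 0.117).

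RB1, the founding pocket protein gene and a tumour suppressor, was higher in both treated mouse lines. Rb1 (chr14:73192858-73325951) was at 26.1, 29.1 and 31.2 CPM in HSP90i MEF, against 16.4, 17.9 and 10.5 CPM in Control MEF, 1.9-fold higher (0.93 ± 0.17, adjusted p = 0.00101, edgeR's quasi-likelihood test). In HPC-7 it was at 94.7, 103 and 121 CPM in HSP90i cells, against 74.3, 71.3 and 66.7 CPM in Control cells, 1.5-fold higher (0.59 ± 0.10, adjusted p = 0.000345). Both mouse lines were free of overlap, and the lowest MEF control, at 10.5 CPM, was replicate 3. In K562 it was at 126, 128 and 127 CPM in HSP90i cells and 81.3, 155 and 161 CPM in Control cells (−0.06 ± 0.24, adjusted p = 0.898). The treated K562 values were nearly equal and lay inside the spread of the controls. Lpar6, a receptor gene, lies within Rb1 over 2468 bases, and since no source used here says whether counting used strand, the pair could share reads. Lpar6 itself held 912 counts in MEF and 1424 in HPC-7, against 1876 and 6577 for Rb1. Its own change was −0.09 ± 0.19 in MEF (adjusted p = 0.696) and 0.43 ± 0.12 in HPC-7 (adjusted p = 0.00816).

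RBL2, the pocket protein gene typical of resting cells, also rose in both mouse lines. Rbl2 (chr8:91070057-91123844) was at 296, 313.5 and 325 CPM in HSP90i HPC-7, against 193, 199 and 189 CPM in Control HPC-7, 1.61-fold higher (0.69 ± 0.07, adjusted p = 9.3e-06, edgeR's quasi-likelihood test). In MEF it was at 55.2, 56.3 and 57.2 CPM in HSP90i cells, against 41.6, 42.7 and 44.6 CPM in Control cells, 1.31-fold higher (0.39 ± 0.05, adjusted p = 0.000172). No treated library overlapped a control in either line. In K562 it was at 68.1, 63.1 and 79.0 CPM in HSP90i cells and 30.7, 58.4 and 64.9 CPM in Control cells (0.45 ± 0.26, adjusted p = 0.305), and treated replicate 2 lay below Control replicate 3. Aktip, a vesicle transport gene, shares 12064 bases with Rbl2 and also rose, by 0.39 ± 0.07 in MEF (adjusted p = 0.00123) and by 1.36 ± 0.11 in HPC-7 (adjusted p = 3.04e-06), with 2206 and 2032 counts in all, against 4255 and 18696 for Rbl2. Reads from the shared stretch could have been counted for either gene.

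**Figure D2:**
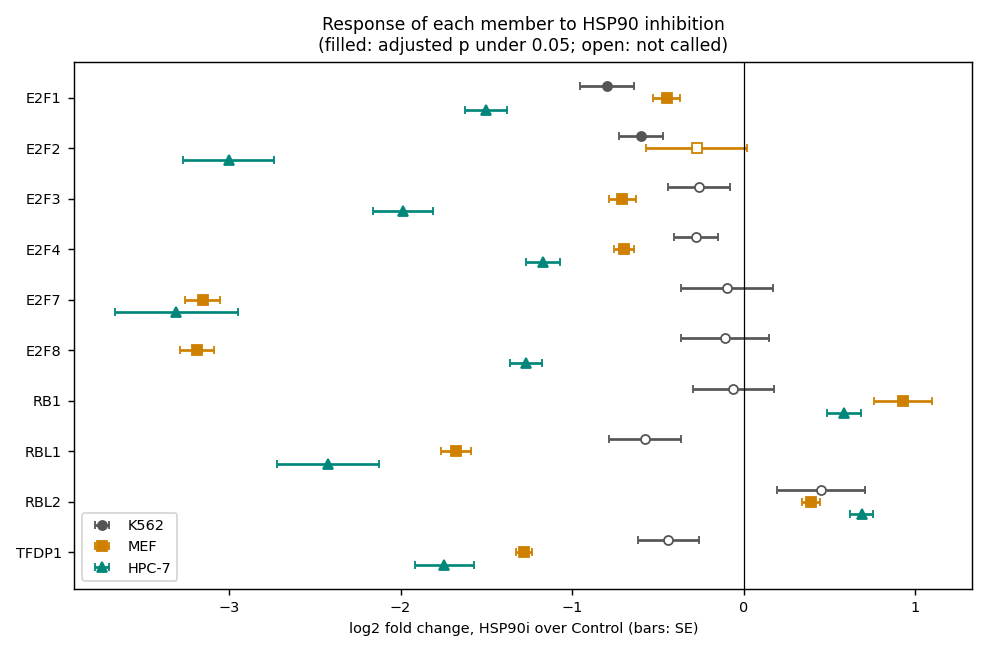
Log2 fold change of HSP90i over Control (x axis; bars are SE) of each gene in K562, MEF and HPC-7, filled where the adjusted p was under 0.05 and open where it was not. In MEF E2F7 and E2F8 lie at −3.15 and −3.19, in HPC-7 E2F7 and E2F2 lie at −3.31 and −3.00, and the called points right of 0 are those of RB1 and RBL2 in the mouse lines.

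The opposite movement of Rbl1 and Rbl2 can be read as a count ratio inside each library, which no scaling between libraries can alter. In HPC-7 there were 20.3, 7.84 and 19.8 Rbl2 counts per Rbl1 count in HSP90i cells, against 1.55, 1.51 and 1.58 in Control cells. In MEF there were 3.65, 3.05 and 3.61 in HSP90i cells, against 0.842, 0.771 and 0.844 in Control cells. In K562 there were 1.67, 1.60 and 1.92 in HSP90i cells, against 0.748, 0.888 and 0.877 in Control cells. The ratio was higher in every treated library than in every control of its line, K562 included, although neither gene was called there. The K562 ratio of Control replicate 1 was close to those of the other 2 controls, and HPC-7 HSP90i replicate 2 was lower than the other 2 treated libraries. The ratio of E2F1 to E2F4 counts was less uniform. It was 0.213, 0.245 and 0.221 in HSP90i HPC-7, against 0.274, 0.290 and 0.293 in Control HPC-7. In K562 it was 0.917, 0.994 and 0.844 in HSP90i cells, against 1.40, 1.31 and 1.22 in Control cells. In MEF it went the other way, at 0.545, 0.581 and 0.577 in HSP90i cells, against 0.508, 0.465 and 0.447 in Control cells. These ratios were not tested and are given as descriptions.

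**Figure D3:**
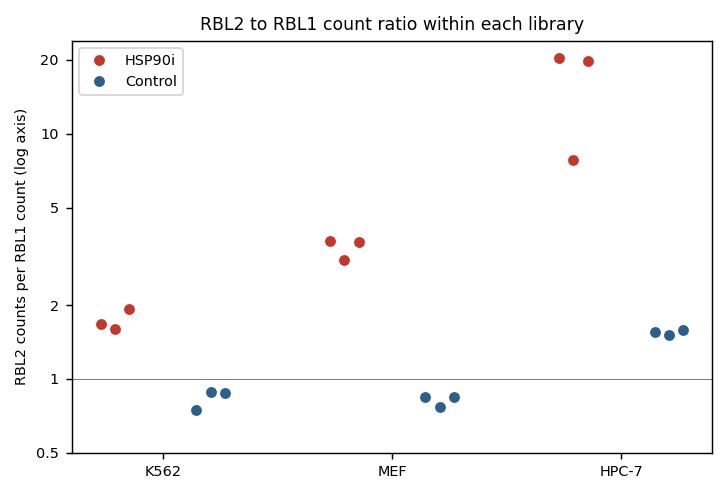
RBL2 counts per RBL1 count in each library (log axis), HSP90i in red to the left of Control in blue within each line. The red points lie above the blue ones in every line, and HPC-7 HSP90i replicate 2, at 7.84, is the lowest treated library of HPC-7.

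In K562 the picture of these genes turned on Control replicate 1. Without that library, 8 members were called lower and 0 higher, and over all genes the calls were then 1922 higher (14%) and 1995 lower (14.6%). TFDP1 was then at −0.62 ± 0.08 (adjusted p = 9.46e-05, edgeR's quasi-likelihood test) and RBL1 at −0.78 ± 0.09 (adjusted p = 3.52e-05). E2F3 was at −0.44 ± 0.09 (adjusted p = 0.00189), E2F8 at −0.38 ± 0.10 (adjusted p = 0.0114), E2F7 at −0.38 ± 0.11 (adjusted p = 0.0177) and RB1 at −0.31 ± 0.08 (adjusted p = 0.0106). E2F1 remained called at −0.66 ± 0.10 and E2F2 at −0.51 ± 0.09. E2F4 at −0.19 ± 0.09 and RBL2 at 0.19 ± 0.11 were not called (adjusted p = 0.115 and 0.21). Without HSP90i replicate 1, 2 or 3, or without Control replicate 2, no member was called in K562, with E2F1 at an adjusted p of 0.0583 to 0.0963 and E2F2 at 0.057 to 0.124. RB1 in K562 took either sign: it was at −0.06 with all libraries and at −0.31 without Control replicate 1, but at 0.07 when Control replicate 2 was left out (adjusted p = 0.905) and at 0.11 on leaving out Control replicate 3 (adjusted p = 0.784). A difference between K562 and the mouse lines was not tested.

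**Figure D4:**
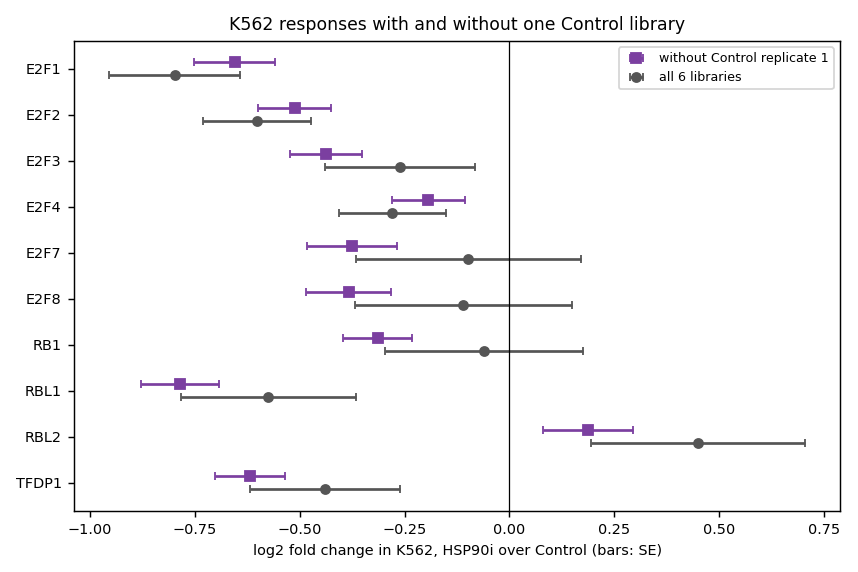
Log2 fold change of HSP90i over Control in K562 (x axis; bars are SE) of each gene, without Control replicate 1 (purple squares) and with all 6 libraries (grey circles). Without that library RBL1 lies at −0.78 and TFDP1 at −0.62, and the bars are shorter for each gene.

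The responses of the mouse lines were compared in a joint fit of the 12 mouse libraries, as the log2 change in MEF minus that in HPC-7. MEF had received 200 nM and HPC-7 50 nM, so line and dose cannot be told apart. The difference was called for 6 members, while it was called for 43.2% of the 13720 genes tested, and the median of all genes was 0.11, to which the members' values should be set. For the activators the log2 change was less negative in MEF, where E2f2 was not called: the difference was 1.17 ± 0.16 for E2f1 (adjusted p = 3.81e-05, edgeR's quasi-likelihood test), 2.84 ± 0.44 for E2f2 (adjusted p = 0.000112) and 1.40 ± 0.22 for E2f3 (adjusted p = 0.000128). E2f4 differed by 0.59 ± 0.13 (adjusted p = 0.0019), although without HPC-7 Control replicate 1 its adjusted p was 0.0613. E2f8 differed in the opposite direction, falling further in MEF (−1.80 ± 0.14, adjusted p = 2.36e-07).

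E2f7, in contrast to E2f8, showed no called difference between the lines (0.28 ± 0.42, adjusted p = 0.666, edgeR's quasi-likelihood test), but without HPC-7 HSP90i replicate 2 it was called at 1.22 (adjusted p = 0.000126). Rbl1 likewise was at 0.87 ± 0.36 (adjusted p = 0.0674) with all libraries and was called at 1.45 without that replicate (adjusted p = 5.85e-07). Tfdp1 was called at 0.58 ± 0.20 (adjusted p = 0.0301), yet the call was lost under the other scalings, where its adjusted p was 0.0589 to 0.0759, and on leaving out any 1 of the 12 libraries except MEF Control replicate 3 and HPC-7 HSP90i replicate 2. Rb1 at 0.46 ± 0.19 (adjusted p = 0.0705) and Rbl2 at −0.18 ± 0.09 (adjusted p = 0.122) were not called. Rbl2 was called under the other scalings, at −0.31 with RLE factors (adjusted p = 0.0114), and without each HPC-7 control.

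Before treatment the mouse lines already differed in these genes. Set to common factors in the joint fit, Control MEF was lower than Control HPC-7 for 9 members and higher for 1, while 43.6% of all genes were called lower and 39.7% higher. Each line came from its own count table, so line and table cannot be told apart. Rb1 averaged 15.6 ± 3.77 CPM in Control MEF and 64.8 ± 3.58 CPM in Control HPC-7 (−2.03 ± 0.14, adjusted p = 4.99e-09, edgeR's quasi-likelihood test). Rbl2 averaged 45.1 ± 2.57 CPM in Control MEF and 177 ± 4.36 CPM in Control HPC-7 (−1.97 ± 0.06, adjusted p = 7.99e-13). The genes that rose under inhibition thus stood about 4 times lower in Control MEF, at 4.1-fold for Rb1 and 3.93-fold for Rbl2. This was not particular to them, as E2f2 was 3.84-fold and E2f8 3.28-fold lower there, and neither rose.

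E2f2 averaged 3.31 ± 0.912 CPM in Control MEF and 13.1 ± 1.83 CPM in Control HPC-7 (−1.94 ± 0.25), and E2f8 averaged 31.5 ± 1.18 CPM in Control MEF and 103 ± 0.887 CPM in Control HPC-7 (−1.72 ± 0.08). E2f3, E2f4 and Rbl1 were at −1.19 ± 0.15, −1.08 ± 0.09 and −1.06 ± 0.23. E2f7 was the exception, at 61.8 ± 2.68 CPM in Control MEF and 35.5 ± 1.28 CPM in Control HPC-7 (0.80 ± 0.22, adjusted p = 0.00398, edgeR's quasi-likelihood test). The adjusted p of the 5 genes before it ran from 6.14e-11 for E2f8 to 0.00074 for Rbl1. Tfdp1 at −0.51 ± 0.14 and E2f1 at −0.34 ± 0.11 were the closest between the lines (adjusted p = 0.00402 and 0.00814), and neither was called once any 1 HPC-7 control was left out, nor was E2f1 with RLE factors (adjusted p = 0.0922).

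The genes around the switch were followed in lists of cyclins and CDKs, CDK inhibitors, partners and targets. Each list's counts are to be set against the shares of all genes called lower and higher, which were 38.2% and 35.1% in MEF, 36.6% and 36.5% in HPC-7, and 5.97% and 5.11% in K562. Genes are named from among the up to 3 called genes with the smallest p in each list and line, and not all of those are named. Exceptions are Ccnd2 and Ccnd3 in MEF and Cdk6 in HPC-7, which were named after their values were seen. In MEF 7 of 9 cyclin and CDK genes fell and 2 rose, Ccnd2 by 0.36 ± 0.05 (adjusted p = 0.000229, edgeR's quasi-likelihood test) and Ccnd3, for cyclin D3, by 0.62 ± 0.06 (adjusted p = 1.11e-05). In HPC-7 8 of 9 fell and Cdk6, a kinase partner of the D cyclins, rose by 0.95 ± 0.13 (adjusted p = 7.52e-05). The cyclin D1 gene Ccnd1, whose product starts RB phosphorylation with CDK4 and CDK6, averaged 130 ± 4.92 CPM in HSP90i MEF and 539 ± 33.0 CPM in Control MEF (−2.06 ± 0.06, adjusted p = 1.96e-08, edgeR's quasi-likelihood test). In HPC-7 Ccnd2, for cyclin D2, averaged 64.0 ± 5.99 CPM in HSP90i cells and 157.3 ± 13 CPM in Control cells (−1.30 ± 0.09, adjusted p = 1.64e-06). In K562 4 of 9 fell and 0 rose, led by CCND1 at 11.5 ± 0.611 CPM in HSP90i cells and 39.8 ± 3.08 CPM in Control cells (−1.80 ± 0.14, adjusted p = 0.000229) and CCND2 at −0.97 ± 0.12 (adjusted p = 0.00232). CCND1 and CCND2 were called without any 1 K562 library too. The list medians were −1.37 in MEF, −1.30 in HPC-7 and −0.21 in K562.

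CDK inhibitor genes moved both ways. Cdkn1a, for p21, averaged 161 ± 4.99 CPM in HSP90i MEF and 54.0 ± 6.62 CPM in Control MEF (1.57 ± 0.08, adjusted p = 4.74e-07, edgeR's quasi-likelihood test), and in HPC-7 it changed by 1.23 ± 0.11 (adjusted p = 6.87e-06). Cdkn1b, for p27, averaged 153 ± 14.7 CPM in HSP90i HPC-7 and 73.4 ± 1.92 CPM in Control HPC-7 (1.06 ± 0.08, adjusted p = 2.6e-06). In K562 CDKN1B was called higher as well, at 0.63 ± 0.12 (adjusted p = 0.0161), as was CDKN2C at 0.72 ± 0.13 (adjusted p = 0.0103), which in HPC-7 fell by 1.55 ± 0.14 (adjusted p = 5.07e-06). CDKN2D was called lower in K562, at −0.69 ± 0.18 (adjusted p = 0.0444), and in MEF, at −0.81 ± 0.09 (adjusted p = 5.02e-05). In all, 4 rose and 3 fell of 7 tested in MEF, 2 and 2 of 6 in HPC-7, and 2 and 1 of 5 in K562, with medians of 0.24, 0.16 and 0.15. The HPC-7 share of 2 in 6 in each direction is close to that of all genes.

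The MuvB core and its partners, which join E2F4 and RBL2 in a repressor of resting cells and B-MYB or FOXM1 in cycling cells, fell in 6 of 8 members and rose in 1 in each mouse line. Foxm1 averaged 34.7 ± 0.943 CPM in HSP90i MEF and 190 ± 1.53 CPM in Control MEF (−2.45 ± 0.05, adjusted p = 5.93e-09, edgeR's quasi-likelihood test), and changed by −2.46 ± 0.21 in HPC-7 (adjusted p = 4.75e-06). Lin54, which binds DNA for the MuvB core, was at −2.30 ± 0.10 in MEF (adjusted p = 1.18e-07). In K562 1 of 8 was called, MYBL1, at −1.05 ± 0.23 (adjusted p = 0.0243). The medians were −1.05 in MEF, −1.10 in HPC-7 and 0.05 in K562. Of 7 corepressor genes of the RB proteins, 2 rose and 3 fell in MEF (median 0.17), 2 rose and 5 fell in HPC-7 (median −0.77), and 1 rose in K562 (median −0.04). The MEF corepressor counts are near the shares of all genes. Suv39h1, a histone methyltransferase that RB1 recruits, fell by 1.73 ± 0.06 in MEF (adjusted p = 3.85e-08) and by 1.74 ± 0.13 in HPC-7 (adjusted p = 1.94e-06). Arid4a, the corepressor gene with the smallest p in HPC-7, rose there by 1.48 ± 0.08 (adjusted p = 3.25e-07, edgeR's quasi-likelihood test). Kdm5a, a histone demethylase that binds RB1, was at 0.97 ± 0.07 in MEF (adjusted p = 2.42e-06), and KDM5A at 0.95 ± 0.24 in K562 (adjusted p = 0.0371). Of the remaining E2F and DP genes, E2f5 fell by 0.38 ± 0.08 in MEF (adjusted p = 0.00244) and by 0.73 ± 0.12 in HPC-7 (adjusted p = 0.000253), E2f6 fell in HPC-7 (−0.75 ± 0.09, adjusted p = 2.92e-05), and 0 of 3 were called in K562.

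E2F target genes of S phase fell in 31 of 31 members in MEF and in 31 of 31 in HPC-7, with medians of −1.67 and −2.62. Per library their summed level was 1098 to 1148 CPM in HSP90i MEF, against 3644 to 3800 CPM in Control MEF, and 1155 to 2290 CPM in HSP90i HPC-7, against 7235 to 7409 CPM in Control HPC-7. Tk1, for thymidine kinase, averaged 12.1 ± 0.763 CPM in HSP90i MEF and 145 ± 1.88 CPM in Control MEF (−3.59 ± 0.06, adjusted p = 4.71e-09, edgeR's quasi-likelihood test). Gins2, for a part of the replicative helicase, averaged 9.39 ± 4.18 CPM in HSP90i HPC-7 and 63.8 ± 6.41 CPM in Control HPC-7 (−2.79 ± 0.22, adjusted p = 2.84e-06). Mcm7, the target with the smallest p in HPC-7, changed less there (−1.53 ± 0.12, adjusted p = 2.42e-06, edgeR's quasi-likelihood test). In K562 2 of 31 fell and 0 rose (median −0.27), namely the helicase genes MCM6 at −0.64 ± 0.11 (adjusted p = 0.0104) and MCM3 at −0.48 ± 0.12 (adjusted p = 0.0435). The K562 sum was 6726 to 6926 CPM in HSP90i cells, against 8034 to 8630 CPM in Control cells, without overlap.

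Markers of mitosis and proliferation fell in 8 of 8 in each mouse line and were called higher in 4 of 8, with 0 lower, in K562. Their sums were 472.2 to 579.2 CPM in HSP90i MEF, against 1959 to 2518 CPM in Control MEF, and 537.8 to 823.9 CPM in HSP90i HPC-7, against 2608 to 2731 CPM in Control HPC-7. In K562 the sum was 2078 to 2225 CPM in HSP90i cells, against 1226 to 1567 CPM in Control cells. CCNB1, for the mitotic cyclin B1, averaged 94.6 ± 2.01 CPM in HSP90i K562 and 46.0 ± 1.36 CPM in Control K562 (1.04 ± 0.12, adjusted p = 0.00152, edgeR's quasi-likelihood test), and PLK1, for a mitotic kinase, was at 0.71 ± 0.13 (adjusted p = 0.0142). Plk1 in the mouse lines was at −2.38 ± 0.06 in MEF (adjusted p = 1.49e-08) and −1.94 ± 0.11 in HPC-7 (adjusted p = 4.91e-07). Counts of called genes in these lists were the same in HPC-7 without HSP90i replicate 2, with medians of −3.20 for the S phase targets and −2.16 for the mitosis markers. In K562 they turned on single libraries, an alternative run after the data were seen. Without Control replicate 1, 17 of 31 S phase targets were called lower and 1 higher, 7 of 8 mitosis markers higher, and 6 of 9 cyclin and CDK genes lower and 1 higher, against 14.6% of all genes lower and 14% higher. Without Control replicate 1, 2 CDK inhibitors were called in each direction, 1 corepressor was called higher and 2 lower, and 1 MuvB gene and 1 further E2F or DP gene were called lower. Without Control replicate 2 or any 1 HSP90i library, the S phase targets called lower numbered 0 or 1, the mitosis markers called higher 1 (CCNB1), and the cyclin and CDK genes called lower 2. In those same settings the CDK inhibitors called higher numbered 0 or 1, the corepressors called 0, and the MuvB genes called 0 or 1. Without Control replicate 3 the counts of the S phase targets and of the cyclins and CDKs were as with all libraries, and 5 mitosis markers were called higher. The share of cycling cells was not measured, and its part in the members' changes was not tested.

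Among 8322 genes tested in all 3 lines, those with the 3 log2 fold changes nearest to a member's were named by Euclidean distance, as a description over 3 lines. Nearest to E2F1 were MFSD3 (0.132), TRIM36 (0.264) and TOR3A (0.267). The steep fall of E2F8 in MEF with a smaller one in HPC-7 was matched most closely by SLC29A2, a nucleoside transporter gene, at a distance of 0.192, with log2 changes of −0.27 (K562), −3.22 (MEF) and −1.18 (HPC-7), ahead of DEPDC1B (0.466) and EFCAB11 (0.486). Nearest to RBL2 were TNKS2 (0.0396), SIRT4 (0.0404) and FECH, for the last enzyme of haem synthesis (0.0689). Distances are not compared between members, whose changes differ in size.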

How the data were processed

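RNA-seq of K562, MEF and HPC-7 cells was analysed, with 3 HSP90i and 3 Control libraries in each line, grouped by their titles. DMSO columns of the tables were matched to Control samples by line and number. The raw counts per gene were deposited by the authors as 1 table for each line. TopHat2 2.0.13 and featureCounts are among the tools named in the submitters' processing notes, without roles. Neither the K562 build nor strand use in counting is stated in the sources at hand, so overlapping genes could share reads. Mouse gene positions and promoters came from RefSeq on GRCm38.p6.

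Genes passing edgeR's filterByExpr were scaled with TMM and tested within each line by edgeR's quasi-likelihood method (version 4.0.16 in R 4.3.3), with Benjamini-Hochberg adjustment over the 13456 genes tested for K562, 12340 for MEF and 11703 for HPC-7. The MEF and HPC-7 responses and untreated levels were compared in 1 fit of the 12 mouse libraries over 13720 genes. Biological coefficients of variation were 0.172 (K562), 0.0835 (MEF) and 0.09 (HPC-7). An exact permutation test of 3 against 3 libraries cannot go below p = 0.1, so the fit across genes was used. The procedure was tested on simulated counts in which no library was set apart, so that test does not bear on results that turned on a single library. Where a symbol had several rows, the row with the highest total was used.

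The members and gene lists were chosen with earlier results of these data known. Named genes were the 10 members, genes from among the up to 3 called with the smallest p in each list and line, and the 3 nearest in pattern to E2F1, E2F8 and RBL2. Some markers and the exceptions given above were named outside this rule. Alternatives were other scalings (RLE, library size, upper quartile), other filters (none, or 1 CPM in 3 libraries), DESeq2 1.42.0, limma-voom with sample weights (limma 3.58.1), a replicate block, a joint mouse fit and each library left out. Plots used matplotlib 3.10.9 (Python 3.11.15). Peaks of HSP90 in K562 were not used here. Some marker genes are not reported here.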

Additional observations from a re-analysis of the deposited data

Results flagged for a closer look

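For 6 of the 10 members the response differed between the mouse lines by the interaction of line and condition in edgeR's quasi-likelihood test, as the log2 change in MEF minus that in HPC-7, each with 3 HSP90i and 3 Control libraries. Of all 13720 genes tested, 43.2% were called in the same comparison. E2f1 differed by 1.17, E2f2 by 2.84, E2f3 by 1.40, E2f4 by 0.588 and Tfdp1 by 0.583, each with a less negative change in MEF, where E2f2 was not called, and E2f8 by −1.80, with a more negative change in MEF. Line and dose (200 nM in MEF, 50 nM in HPC-7) cannot be told apart. Tfdp1 lost its call under the other scalings, and E2f4 without HPC-7 Control replicate 1.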

How the results depend on the processing

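The 9 members called in MEF and the 10 called in HPC-7 kept these counts and directions under every alternative run. Over all genes, the alternatives called 4003 to 5166 higher and 3983 to 4884 lower in MEF, of 12232 to 20447 tested. In HPC-7 they called 3935 to 4590 higher and 3993 to 4602 lower, of 11501 to 18648 tested. In K562 the 2 calls became 3 with no filter on low counts, where RBL1 was added (adjusted p = 0.0468), and 9 with limma-voom and sample weights, all of them lower. Leaving out 1 K562 library gave 0 to 8 calls. Without an HSP90i library or Control replicate 2, 1.25% to 1.76% of all K562 genes were called higher and 1.24% to 2.4% lower. Without Control replicate 1, which gave the 8 calls, 14% were called higher and 14.6% lower. The called differences between the mouse responses numbered 6, and 5 to 8 under the alternatives, and the called differences between the untreated lines numbered 10, and 8 to 10. No called member changed direction. Of 13456 genes tested in K562, 688 were called higher and 803 lower, against 435 and 1195 with library size alone and 535 and 981 with upper quartile factors. With no filter on low counts, 969 were called higher and 1065 lower of 24345. The counts were 2742 and 2849 of 13456 with limma-voom, and 1922 and 1995 of 13709 without Control replicate 1. They were 173 to 241 higher and 171 to 328 lower without 1 of the HSP90i libraries or Control replicate 2. Of 13720 genes tested, the mouse interaction called 3488 higher and 2445 lower, against 2771 and 3090 with RLE factors and 2678 and 3021 with DESeq2, with a median of 0.11, −0.01 and −0.02. The untreated lines gave 5442 and 5976 of 13720, against 6053 and 5254 with RLE factors and 4706 and 6951 with library size alone. The cause of these shifts was not tested.

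Replicate numbers did not pair the samples throughout: same-numbered deviations correlated at 0.0417 to 0.451 in K562, −0.245 to 0.268 in MEF and −0.0898 to 0.0235 in HPC-7. In K562 they lay above the highest value for other numbers in replicate 1 (0.281 against −0.162) and replicate 3 (0.451 against 0.0952). They lay below it in K562 replicate 2 (0.0417 against 0.169). In MEF only replicate 1 lay above (0.268 against −0.00741), and in HPC-7 only replicate 2 (0.0235 against −0.00564). Whether the K562 libraries were paired cannot be told from these values. With the replicate number as a block, 2 members were called in K562, 9 in MEF, 10 in HPC-7, 7 in the mouse interaction, where Rbl1 was added (adjusted p = 0.0275, edgeR's quasi-likelihood test), and 10 between untreated lines. Over all genes the block gave 872 higher and 938 lower of 13456 in K562, and 4208 and 4588 of 12340 in MEF. In HPC-7 it gave 4053 and 4076 of 11703. The interaction gave 3195 and 2263, and the untreated lines 5425 and 5956, each of 13720. Peaks near member starts had been planned and were not run, since no human annotation was used here. Low counts limit E2f2, with 10 to 29 counts in HSP90i HPC-7 libraries.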
